A study of Rattus norvegicus with 6 samples.

Results

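The 10 genes described here encode the enzymes that make bile acids from cholesterol in the liver and attach an amino acid to them: Cyp7a1, Cyp8b1, Cyp27a1, Cyp7b1, Hsd3b7, Akr1d1, Amacr, Acox2, Slc27a5 and Baat. They were chosen by name, with earlier results of these data known, as the rows of the deposited gene table that carry these symbols. Each symbol had a row, and all 10 were among the 18455 genes, of 32930 listed, that were expressed highly enough to be tested. The libraries were made from liver RNA of 3 animals of the high-fat diet group (HFD) and 3 animals of the group given the same kind of diet and HTG (the Huazhuo Tiaozhi granule, a herbal preparation). Both interventions lasted 12 weeks per the labels, which give a vehicle of 0.5% sodium carboxymethyl cellulose for HFD and name none for HTG. For its rats, the paper describes 12 weeks of high-fat diet, with HTG given by gavage in the later weeks only. It describes the same 0.5% vehicle for all groups of rats, and it is not stated whether that scheme held for these animals. The labels' treatment field spells the preparation HCG, whereas the titles and design text write HTG. There was no group on a normal diet among these libraries. The labels name rats without a strain, age or sex, the published RNA sequencing methods speak of C57BL/6 J mice, and the table lists mouse Ensembl genes, so the values are given for mouse genes and the species of the animals cannot be settled here. The high-fat diet that the paper describes for its rats held cholesterol and sodium cholate, itself a bile acid salt, and it is not stated whether these animals ate that feed.

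Bile acids are the main route by which cholesterol leaves the body. In the classic route, Cyp7a1 adds a hydroxyl group to the cholesterol ring and sets the rate, and Cyp8b1 steers the product towards cholic acid. In the alternative route, Cyp27a1 first oxidises the side chain in the mitochondrion and Cyp7b1 then hydroxylates the ring. Both routes share the later ring steps (Hsd3b7, Akr1d1), the shortening of the side chain in the peroxisome (Amacr, Acox2), and the coupling to taurine or glycine (Slc27a5, Baat). Bile acids returning to the hepatocyte bind the nuclear receptor FXR, which induces the repressor SHP, and SHP in turn restrains Cyp7a1 and Cyp8b1.

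Of the 10 genes, 9 had a lower fitted level in HTG than in HFD and Hsd3b7 had a higher one, but none passed an adjusted p of 0.05. Of all 18455 genes tested, 8933 had a lower fitted level in HTG. Slc27a5 and Amacr came closest, and they were the only members whose libraries did not overlap between the groups. Such a lack of overlap was common, with 15.5% of all genes lower in HTG in this way and 16.5% higher. Slc27a5, which activates bile acids for conjugation, was 1.89-fold lower in HTG, and Amacr, the racemase of side chain shortening, was 1.55-fold lower. Cyp8b1 had the largest difference, 4.14-fold lower by the group means, with a spread within HTG that was wider than in nearly all other genes. The median log2 fold change of the 10 genes was -0.39, beside 0.03 over all genes tested.

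Differences were tested by the quasi-likelihood method of edgeR, adjusted over the 18455 genes by Benjamini-Hochberg and applied to the deposited estimated counts after TMM scaling. At an adjusted p under 0.05 it called 0.0108% of all genes in either direction. Under 0.1 it called 2 of the 10 genes lower and 0 higher, beside 5.43% of all genes called lower and 5.41% called higher. Without adjustment, the same 2 genes were lower and 0 higher at p under 0.05, against 12.4% of all genes lower and 12.3% higher. The groups did not overlap in 2 of the 10 genes, both lower in HTG, and in 15.5% of all genes with HTG lower and 16.5% with HTG higher. DESeq2 called these 2 genes lower at an adjusted p under 0.05, and 0 higher, where it called 9.37% of the 14491 genes it adjusted lower and 7.65% higher. Nothing says that the libraries came from separate experiments, so these p-values measure the spread between the 3 libraries of each group.

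The libraries held between 50648778 and 90563477 estimated counts. Low values peaked in steps of about 4, as 4 counts occurred 6450 times and 5 counts 1757 times. Counts of 1, 2 and 3 were also frequent, at 5104, 4229 and 2549 times. On the untested assumption of 4 counts per fragment, these totals would stand for about 12662194 to 22640869 sequenced fragments. The detection limit, set at 12 counts or 3 fragments on that assumption, was 0.123 to 0.256 CPM, the counts in relation to a library's TMM-scaled total. This limit lay far under the level of every member, and it covers counting error only. Mitochondrially encoded mRNAs took 4.82% to 6.31% of the counts in HFD and 9.12% to 14.9% in HTG. Across genes, which are not independent replicates, log2 CPM of HTG library 1 correlated as closely with HFD library 1 (r = 0.982) as with HTG libraries 2 (r = 0.979) and 3 (r = 0.978). HFD library 1 in turn correlated as closely with HTG library 1 as with HFD libraries 2 (r = 0.98) and 3 (r = 0.982), so this trait was not particular to HTG library 1. Values without HTG library 1 are also given for Cyp7a1, Cyp8b1, Amacr and Slc27a5. For each of these genes, no other left-out library gave as low a fold change.

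Cyp7a1 (ENSMUSG00000028240; chromosome 4, 6265612 to 6275633, minus strand) is the rate-limiting enzyme of the classic route. Its level was 178, 175 and 330 CPM in HFD libraries 1, 2 and 3, and 200, 134 and 80.8 CPM in HTG libraries 1, 2 and 3. HFD library 3 was the highest and HTG library 3 the lowest, and HTG library 1 lay above HFD libraries 1 and 2, so the groups overlapped. The means were 228 ± 88.5 CPM in HFD and 138 ± 60.0 CPM in HTG (SD, n = 3 libraries each), and the fitted log2 fold change was -0.72 (95% interval -1.58 to 0.14, edgeR adjusted p = 0.278). HFD library 3 carried much of it, since the fold change was -0.36 without that library. HTG library 1 worked the other way, with -1.13 (adjusted p = 0.122) when it was left out.

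Cyp8b1 (ENSMUSG00000050445; chromosome 9, 121743422 to 121745371, minus strand) decides how much cholic acid is made. It stood at 225, 704 and 387 CPM in the HFD libraries and at 261, 39.4 and 17.7 CPM in the HTG libraries. HTG libraries 2 and 3 lay far under every HFD library, while HTG library 1 lay above HFD library 1. The counts behind these 3 HTG values were 20333, 3855 and 828, so none of them was near the limit of detection. The means were 439 ± 243 CPM in HFD and 106 ± 135 CPM in HTG (SD, n = 3 each), and the fitted log2 fold change was -2.05 (95% interval -4.12 to 0.02, edgeR adjusted p = 0.207). Without HTG library 1 it was -3.97 with an adjusted p of 0.0414, and with each of the other libraries left out in turn it lay between -2.36 and -1.52, with adjusted p-values of 0.223 to 0.453.

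Cyp8b1 was also the most uneven of the 10 genes within a group. Its highest HTG library was 14.8 times its lowest, and only 0.324% of the 8014 genes with a mean of at least 10 CPM had a larger ratio. In HFD the ratio was 3.12, exceeded by 3.22% of genes. Cyp7a1 varied less, by 1.88 times in HFD and 2.48 times in HTG, ratios that 13.2% and 4.6% of genes exceeded. At the other end, Amacr varied by 1.07 times in HFD and 1.11 times in HTG. Baat varied by 1.07 times in HFD and 1.23 times in HTG.

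**Figure D1:**
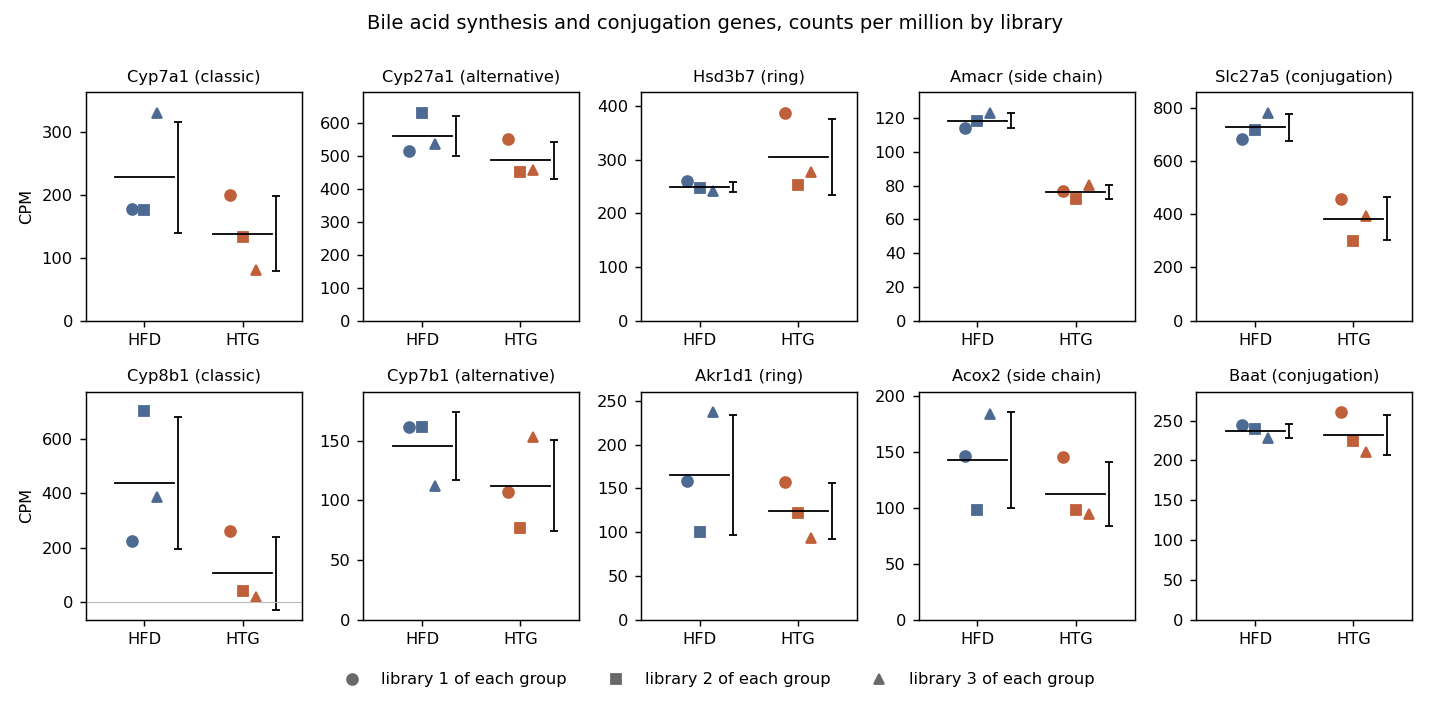
CPM of the 10 genes in each library, with the panels ordered by step of the pathway and each vertical axis in CPM of its own gene. Symbols mark library 1, 2 or 3 of a group, horizontal lines the group mean and bars 1 SD (n = 3). The groups are apart in Amacr (72.1 to 80.2 CPM in HTG, 114 to 123 in HFD) and Slc27a5, and the HTG libraries of Cyp8b1 spread from 17.7 to 261 CPM.

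Cyp27a1 (ENSMUSG00000026170; chromosome 1, 74752733 to 74777051, plus strand), the mitochondrial sterol hydroxylase that opens the alternative route and also acts on the side chain in the classic one, differed little. Its levels were 514, 629 and 536 CPM in HFD and 550, 450 and 458 CPM in HTG. HTG library 1 lay among the HFD libraries and the other HTG libraries lay under all of them. The log2 fold change was -0.20 (95% interval -0.67 to 0.26, edgeR adjusted p = 0.565), and ranged from -0.34 without HTG library 1 to -0.12 without HFD library 2.

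Cyp7b1 (ENSMUSG00000039519; chromosome 3, 18126114 to 18297502, minus strand), the oxysterol hydroxylase of the alternative route, stood at 162, 162 and 112 CPM in HFD and at 107, 77.3 and 153 CPM in HTG. Here HTG library 3 was the highest of its group, at the level of the HFD libraries, although it was the lowest library for Cyp7a1 and Cyp8b1. The log2 fold change was -0.37 (95% interval -1.01 to 0.27, edgeR adjusted p = 0.448), so neither gene of the alternative route passed the test. It ranged from -0.65 without HTG library 3 to -0.16 without HTG library 2.

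The routes were then compared within each library by the ratio of FPKM values, which are fragments scaled to transcript length and library size and so allow the levels of 2 genes to be set against each other. The log2 ratio of Cyp7a1 to Cyp7b1 was -0.81, -0.83 and 0.61 in HFD and -0.04, -0.16 and -1.87 in HTG. The HTG mean was lower by 0.34 on the log2 scale, but HFD library 3 and HTG library 3 decided the sign, and without either of them the difference was 0.13 and 0.25 in the other direction. The exact two-sided permutation test over the 3 libraries per group, which cannot give less than p = 0.1, gave p = 0.8 (0.8 after adjustment over the 3 ratios).

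The log2 ratio of Cyp7a1 to Cyp27a1 was -2.47, -2.78 and -1.64 in HFD and -2.40, -2.69 and -3.45 in HTG, with an exact permutation p of 0.5 (adjusted 0.75). Cyp27a1 was thus the more abundant transcript in every library. The log2 ratio of Cyp8b1 to Cyp7b1 was 0.63, 2.27 and 1.94 in HFD and 1.44, -0.82 and -2.97 in HTG, so Cyp8b1 exceeded Cyp7b1 in all HFD libraries and was below it in 2 HTG libraries. The mean difference was -2.39, at an exact permutation p of 0.2 (adjusted 0.6), and HTG library 1 again lay within the HFD range.

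As a description with no test, the summed FPKM of Cyp7a1 and Cyp8b1 was 0.508, 1.11 and 0.929 times that of Cyp27a1 and Cyp7b1 in HFD. In HTG it was 0.601, 0.215 and 0.101 times. The classic genes were close to or under the alternative genes in every library, and were far under them in HTG libraries 2 and 3.

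**Figure D2:**
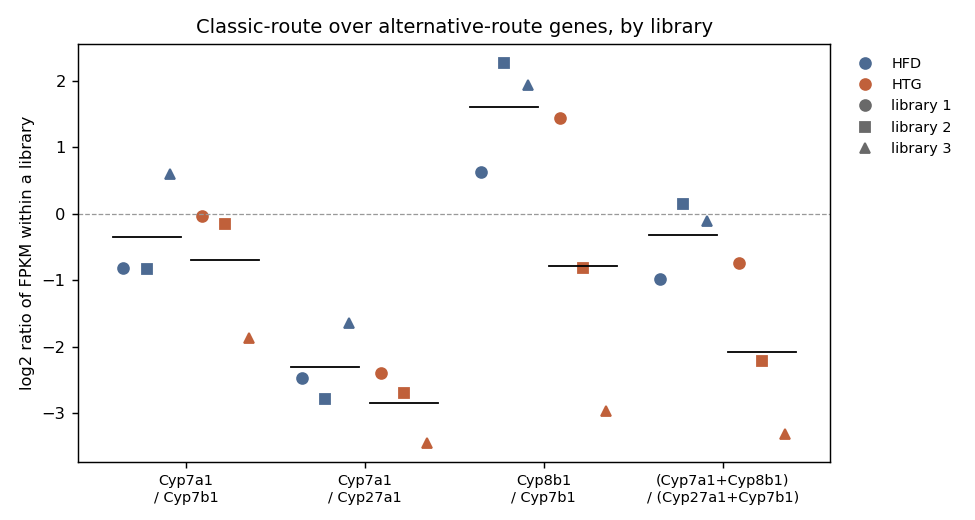
Log2 ratio of FPKM within each library for classic-route over alternative-route genes, with HFD in blue, HTG in orange, symbols for library 1, 2 or 3 and horizontal lines for group means. Points above 0 have more of the classic gene. HTG library 1 lies within the HFD range in each ratio, and HTG library 3 is the lowest point in each, at -2.97 for Cyp8b1 over Cyp7b1.

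The shared ring enzymes pointed in opposite directions and neither passed the test. Hsd3b7 (ENSMUSG00000042289; chromosome 7, 127399776 to 127402974, plus strand), the dehydrogenase that follows the ring hydroxylation in both routes, stood at 259, 247 and 242 CPM in HFD and at 386, 253 and 277 CPM in HTG. The HFD libraries lay within a narrow range and HTG library 1 was the highest of all, which made the log2 fold change 0.29 (95% interval -0.20 to 0.79, edgeR adjusted p = 0.439). Without HTG library 1 it was 0.043. The row of Hsd3b7 overlaps an antisense transcript, 9430064I24Rik, which had 5.47% of the mean count of Hsd3b7, and the sources used here do not say if reads were counted by strand.

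Akr1d1 (ENSMUSG00000038641; chromosome 6, 37507108 to 37545750, plus strand), the reductase that removes the ring double bond, stood at 158, 101 and 237 CPM in HFD and at 157, 122 and 93.4 CPM in HTG. The groups overlapped, and the log2 fold change was -0.41 (95% interval -1.17 to 0.34, edgeR adjusted p = 0.473). It rested largely on HFD library 3, with -0.063 when that library was left out, and was -0.67 without HFD library 2 and -0.66 without HTG library 1. A processed pseudogene within it, Gm7463, had 3.41% of its mean count, and reads could have been split between them.

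In the peroxisomal shortening of the side chain, Amacr and Acox2 differed in how evenly the libraries of a group behaved. Amacr (ENSMUSG00000022244; chromosome 15, 10981842 to 10996712, plus strand) turns the side chain into the form that the oxidase accepts. It stood at 114, 118 and 123 CPM in HFD and at 76.7, 72.1 and 80.2 CPM in HTG, so the gap between the groups was wider than the range within either. The means were 119 ± 4.26 CPM and 76.3 ± 4.03 CPM (SD, n = 3 each), and the log2 fold change was -0.63 ± 0.16 (SE; 95% interval -0.999 to -0.27, edgeR unadjusted p = 0.00366, adjusted p = 0.068, DESeq2 adjusted p = 0.0026). The deposited FPKM values did not overlap between the groups either, with 44.0, 41.0 and 46.8 in HFD and 27.4, 28.0 and 26.8 in HTG.

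Acox2 (ENSMUSG00000021751; chromosome 14, 14210420 to 14244262, plus strand), the oxidase that takes the next step, stood at 146, 98.4 and 183 CPM in HFD and at 145, 97.7 and 94.3 CPM in HTG. Its groups overlapped over most of their range, and the log2 fold change was -0.34 (95% interval -0.98 to 0.29, edgeR adjusted p = 0.478). It was -0.12 without HFD library 3 and -0.62 without HTG library 1. Cyp7a1, Akr1d1 and Acox2 had some of their order in common, each being highest in HFD library 3 and lowest in HTG library 3, with HFD library 2 the lowest of the HFD group.

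In conjugation, the activating enzyme and the transferase behaved differently. Slc27a5 (ENSMUSG00000030382; chromosome 7, 12722273 to 12732119, minus strand), the bile acid-CoA ligase, stood at 681, 717 and 779 CPM in HFD and at 457, 300.2 and 393 CPM in HTG. Every HTG library lay under every HFD library. The means were 725 ± 49.8 CPM and 384 ± 79.1 CPM (SD, n = 3 each), and the log2 fold change was -0.92 ± 0.22 (SE; 95% interval -1.43 to -0.41, edgeR unadjusted p = 0.00315, adjusted p = 0.0657, DESeq2 adjusted p = 0.00082). In FPKM it was 280.0, 266 and 317 in HFD and 175, 124 and 140.4 in HTG.

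Baat (ENSMUSG00000039653; chromosome 4, 49489422 to 49506557, minus strand), which transfers taurine or glycine to the activated bile acid, stood at 244, 239 and 228 CPM in HFD and at 260.4, 225 and 211 CPM in HTG. The HFD libraries lay inside the HTG range. The log2 fold change was -0.03 (95% interval -0.45 to 0.38, edgeR adjusted p = 0.936), an interval that leaves room for a change of up to 0.45 on the log2 scale, and its sign was the other way under upper-quartile scaling or without HTG library 3.

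When mitochondrially encoded mRNAs were left out before scaling, Slc27a5 and Amacr had log2 fold changes of -0.92 and -0.64, with edgeR adjusted p-values of 0.0673 and 0.0675. This refit changed the scaling only, and the part of the higher mitochondrial share of HTG in these differences was not tested. Leaving out HTG library 1 gave -1.11 for Slc27a5 (adjusted p = 0.0493) and -0.68 for Amacr (adjusted p = 0.0767). With each of the other libraries left out in turn, the adjusted p lay between 0.122 and 0.206 for Slc27a5 and between 0.127 and 0.219 for Amacr.

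**Figure D3:**
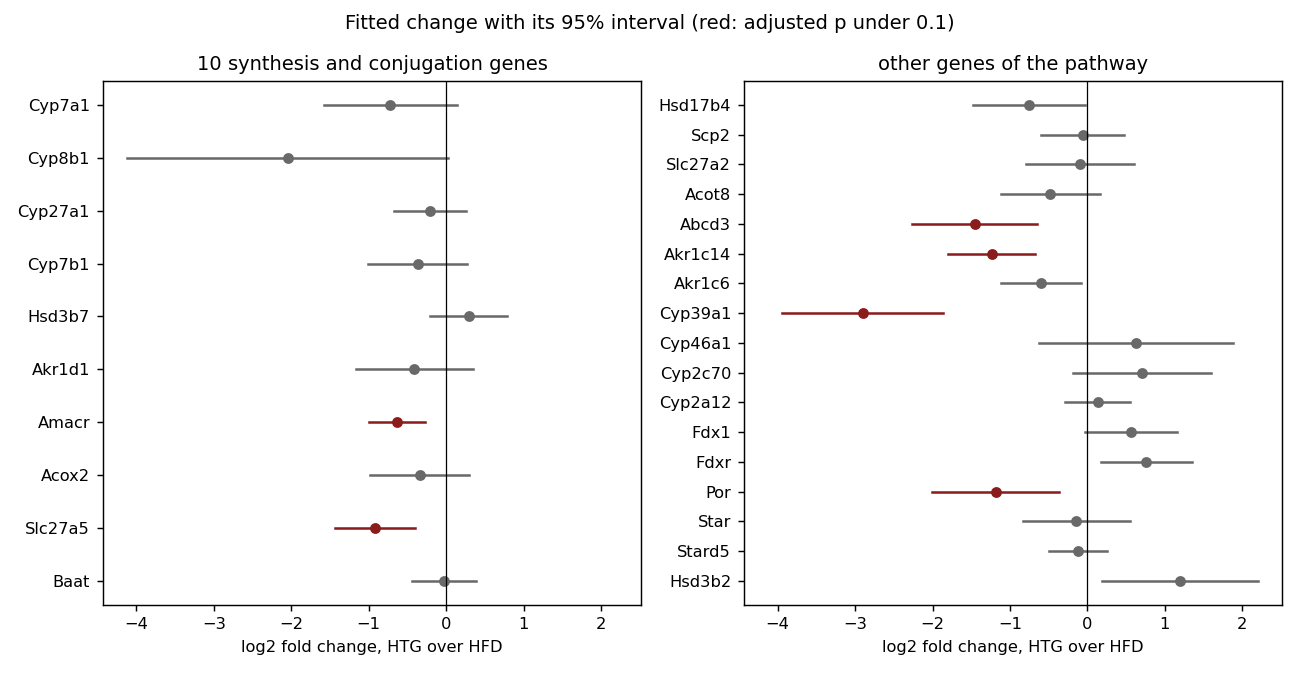
Fitted log2 fold change of HTG over HFD with its 95% interval for the 10 genes (left) and for 17 other genes listed in or around bile acid synthesis (right), in red where the edgeR adjusted p was under 0.1. Ch25h, with 0 to 15 counts per library, is not drawn. The intervals of Amacr and Slc27a5 lie wholly under 0, that of Cyp8b1 reaches from -4.12 to 0.02, and Cyp39a1 lies lowest of the other genes at -2.90.

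By transcript level per length, the order of the genes within a library differed between the groups. Mean FPKM in HFD was highest for Slc27a5 (288 ± 26.7), Cyp27a1 (248 ± 12.5) and Cyp8b1 (213 ± 106), followed by Baat (118 ± 7.61) and Hsd3b7 (87.1 ± 6.63; SD, n = 3). Cyp8b1 could not be separated from its neighbours above it, given its spread. The other 5 genes lay between 37.6 FPKM (Acox2) and 64.6 FPKM (Cyp7b1), and Cyp7a1, at 53.1 ± 22.1, and Akr1d1, at 55.9 ± 25.0, differed by less than their spread.

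In HTG the order began with Cyp27a1 (209.6 ± 26.3 FPKM), Slc27a5 (147 ± 25.9), Baat (112 ± 15.8) and Hsd3b7 (103 ± 23.6; SD, n = 3), the last pair differing by less than their spread. Cyp27a1 was the most abundant of the 10 transcripts in each HTG library, whereas Slc27a5 led in HFD libraries 1 and 3 and Cyp8b1 in HFD library 2. The FPKM of all 10 genes summed to 1109, 1247 and 1270.2 in HFD and to 997, 729 and 669 in HTG.

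Cyp8b1 made up 10.5%, 26.1% and 15.5% of that sum in HFD and 12.5%, 2.80% and 1.18% in HTG. Hsd3b7 made up 8.47%, 6.47% and 6.83% in HFD and 13.1%, 12.7% and 12.998% in HTG, a higher share in each HTG library. Because the shares of a library sum to a whole, a lower Cyp8b1 raises the others, and these shares were not tested.

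**Figure D4:**
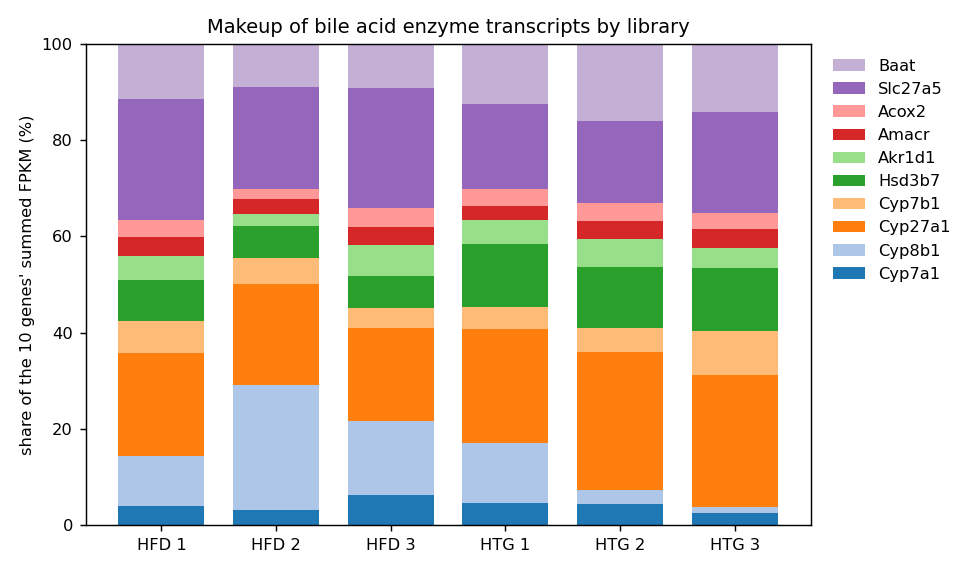
Share of each gene in the summed FPKM of the 10 genes, in percent, for each library, stacked from the classic route at the bottom to conjugation at the top. Cyp8b1 (light blue) takes 10.5% or more in the HFD libraries and HTG library 1, and 2.80% and 1.18% in HTG libraries 2 and 3.

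A further 18 genes were listed for steps in or around bile acid synthesis, and all were tested. At an edgeR adjusted p under 0.1, 4 were lower in HTG and 0 higher, and 0 passed 0.05 (without adjustment 6 were lower and 2 higher at p under 0.05, and DESeq2 called 5 lower and 1 higher at an adjusted p of 0.05). Their median log2 fold change was -0.11. Of all genes, edgeR called 5.43% lower and 5.41% higher at an adjusted p under 0.1, and 12.4% and 12.3% without adjustment at p under 0.05. DESeq2 called 9.37% lower and 7.65% higher. These shares also belong beside the counts of the later lists. This list and the later ones were chosen with earlier results of these data known. Cyp39a1, which hydroxylates one of the oxysterols in the alternative supply of bile acids, stood at 34.7, 60.1 and 25.3 CPM in HFD and at 8.61, 2.997 and 4.48 CPM in HTG, with a log2 fold change of -2.90 ± 0.45 (SE, edgeR adjusted p = 0.0538). Every HTG library lay under every HFD library.

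Abcd3, a transporter that carries bile acid precursors into the peroxisome, stood at 263, 592 and 508 CPM in HFD and at 229, 139 and 129 CPM in HTG (log2 fold change -1.46, edgeR adjusted p = 0.0654). Akr1c14, a reductase of the aldo-keto family to which the ring step after Akr1d1 belongs, stood at 299, 268 and 257 CPM in HFD and at 119, 149 and 82.0 CPM in HTG (log2 fold change -1.24, edgeR adjusted p = 0.0582). Reads of near-identical aldo-keto reductases could have been split among their rows. The fourth gene was Por, the electron donor of the microsomal P450 enzymes (log2 fold change -1.18, adjusted p = 0.0977), named here after its value was seen. By DESeq2, the 1 higher gene was Hsd3b2 (adjusted p = 0.0364), and Akr1c6 (adjusted p = 0.0383) was among the 5 lower. The table's own annotation places neither in bile acid synthesis, and both were named after their values were seen.

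The genes that finish the side chain did not pass the test. Hsd17b4, the bifunctional enzyme after Acox2, had a log2 fold change of -0.75 (edgeR adjusted p = 0.187). Scp2, the thiolase that releases the shortened chain, had one of -0.06 (adjusted p = 0.903). Cyp2c70, which makes the muricholic acids of the mouse, stood at 439, 227 and 405 CPM in HFD and at 660, 300.2 and 785 CPM in HTG, with a log2 fold change of 0.70 (adjusted p = 0.305). Its libraries overlapped between the groups.

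The table's own annotation lists mostly the same genes. Its gene ontology term for bile acid biosynthesis held 13 tested genes, 7 of them among the 10 described here, and all 13 had a negative log2 fold change with a median of -0.37. Over all genes tested, 8933 of 18455 were negative. At an edgeR adjusted p under 0.1, 4 of the 13 were lower and 0 higher, beside 5.43% of all genes lower and 5.41% higher. The 6 that are not among the 10 had a median of -0.14, and 2 of them were lower. The KEGG pathway of primary bile acid biosynthesis held 18 tested genes, all 10 described here among them, of which 14 were negative, 3 lower and 0 higher, with a median of -0.36. Of its 8 others, 5 were negative and 3 positive, 1 was lower, and the median was -0.17.

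Of 14 regulators of the pathway, 3 were lower and 1 higher in HTG at an edgeR adjusted p under 0.1, with 0 under 0.05 (without adjustment 4 were lower and 2 higher at p under 0.05, and DESeq2 called 3 lower and 2 higher at an adjusted p of 0.05). Over all genes, 5.43% were lower and 5.41% higher at that adjusted p under 0.1. Nr0b2, which encodes SHP, was the regulator that was higher at this threshold. Its level was 25.8, 23.0 and 20.1 CPM in HFD and 40.3, 47.1 and 43.3 CPM in HTG, with a log2 fold change of 0.92 ± 0.16 (SE, edgeR adjusted p = 0.055). All HTG libraries lay above all HFD libraries. Whether Nr0b2 had a part in the levels of Cyp7a1 and Cyp8b1 was not tested.

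Nr1h4, which encodes FXR, had a log2 fold change of 0.32 (edgeR adjusted p = 0.407). Klb, the co-receptor through which the intestinal hormone FGF15 acts on the hepatocyte, stood at 13.8, 19.2 and 19.02 CPM in HFD and at 7.87, 7.77 and 5.29 CPM in HTG (log2 fold change -1.31, adjusted p = 0.0542). Its groups did not overlap. The other lower regulators were Rxra, the partner of FXR and other nuclear receptors (log2 fold change -0.73, adjusted p = 0.0785), and Foxo1, a target of insulin signalling (-0.65, adjusted p = 0.0937).

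Of 14 bile acid and sterol transporters, 2 were higher and 2 lower at an edgeR adjusted p under 0.1, with 0 under 0.05 (without adjustment 3 were higher and 4 lower at p under 0.05, and DESeq2 called 2 higher and 2 lower at an adjusted p of 0.05). Among all genes, 5.41% were higher and 5.43% lower at the adjusted p under 0.1. The transporters that were lower at this threshold were both importers of bile acids from blood. Slc10a1 stood at 437, 431 and 835 CPM in HFD and at 285, 262 and 299.9 CPM in HTG (log2 fold change -1.01, adjusted p = 0.0906). Slco1b2 had a log2 fold change of -0.75 (adjusted p = 0.0818).

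Abcg5, part of the pump that passes cholesterol into bile, stood at 108, 70.4 and 81.5 CPM in HFD and at 159, 416 and 171 CPM in HTG (log2 fold change 1.52, edgeR adjusted p = 0.0704). Slc51a, part of a basolateral bile acid exporter, had 1, 8 and 3 counts in HFD, under the detection limit of 12 counts, and 41, 107 and 22 counts in HTG (adjusted p = 0.0629), and no fold is given for it.

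Amacr, Acox2 and the last side chain enzymes work in the peroxisome, so genes that build this organelle were counted as well. Of 14, 5 were lower in HTG and 0 higher at an edgeR adjusted p under 0.1, with 0 under 0.05, the same numbers at an unadjusted p under 0.05 and by DESeq2 at an adjusted p under 0.05, and a median log2 fold change of -0.44. Beside this, 5.43% of all genes were lower at the edgeR adjusted p under 0.1, 12.4% without adjustment and 9.37% by DESeq2. Pex3, which brings membrane proteins to the organelle, had a log2 fold change of -0.82 (adjusted p = 0.0644). Pex7, a receptor for imported enzymes, had one of -0.83 (adjusted p = 0.068), and Pex14, the docking protein of that import, one of -0.88 (adjusted p = 0.0703).

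In bulk liver RNA, fewer cells of a type and less RNA per cell cannot be told apart, and Amacr and Slc27a5 were set beside markers of the cells that the tissue holds. Of 8 hepatocyte markers, 7 were in the table and tested. Albumin (Alb) had the highest mean FPKM of all genes, and at an edgeR adjusted p under 0.1 only Cps1, the first enzyme of the urea cycle, was lower (log2 fold change -1.62, adjusted p = 0.0568) and 0 were higher. Apoa2, a lipoprotein component named after its value was seen, had a log2 fold change of 0.85 (adjusted p = 0.104, DESeq2 adjusted p = 0.0107). The 7 summed to 88247 to 103775 CPM in HFD and to 80689 to 90066 CPM in HTG.

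Of 10 pericentral markers, 5 were lower and 0 higher at an edgeR adjusted p under 0.1, among them Gulo (log2 fold change -1.15, adjusted p = 0.0592), Cyp1a2 (-1.13, adjusted p = 0.0616) and Slc1a2 (-0.98, adjusted p = 0.0814). Without adjustment 6 were lower at p under 0.05, as they were by DESeq2 at an adjusted p of 0.05. Of all genes, 5.43% were lower at the edgeR adjusted p under 0.1, 12.4% without adjustment and 9.37% by DESeq2. The 10 pericentral markers summed to 8401 to 14493 CPM in HFD and to 5545 to 9740 CPM in HTG, and none was at 0. Cyp2e1, named here for its level, gave most of that sum. Its mean was 7417 CPM in HFD and 5000 CPM in HTG (edgeR adjusted p = 0.412). Of the 10 log2 fold changes, 9 were negative and 1 was positive. Of 10 periportal markers, 1 was lower and 0 higher, Ass1 of the urea cycle (-1.14, adjusted p = 0.0605). Without adjustment 3 were lower and 0 higher at p under 0.05, as by DESeq2 at an adjusted p of 0.05, and these were Ass1, Gls2 and Hsd17b13, the last pair named after their values were seen. The periportal markers summed to 6781 to 8086 CPM in HFD and to 3764 to 5295 CPM in HTG. Most of that sum came from Ass1 (means 2991 CPM in HFD and 1361 CPM in HTG) and Pck1 (2860 and 1803 CPM). Pck1 is named here for its level and had an edgeR adjusted p of 0.345. Of the 10 log2 fold changes, 6 were negative and 4 were positive. The part of these zonal genes in the differences of Amacr and Slc27a5 was not tested.

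Markers of other cells were scarce beside those of hepatocytes. The 6 Kupffer cell markers summed to 517 to 994 CPM in HFD and 372 to 662 CPM in HTG. At an adjusted p under 0.1, 1 was lower, the macrophage gene Adgre1 (log2 fold change -1.53, edgeR adjusted p = 0.0538). Without adjustment 2 were lower and 0 higher at p under 0.05, as by DESeq2 at an adjusted p of 0.05. The other one was Cd5l (-0.86, edgeR adjusted p = 0.15), named after its value was seen. The log2 fold changes of the 6 ran from -1.53 to -0.02. The 6 stellate cell markers summed to 142 to 204 CPM in HFD and 122 to 174 CPM in HTG, with Reln lower (-0.70, adjusted p = 0.0935). At an unadjusted p under 0.05, 1 stellate marker was lower and 1 higher. The higher one was Des (0.68, edgeR adjusted p = 0.143), named after its value was seen. The 6 cholangiocyte markers summed to 85.6 to 107 CPM in HFD and 59.6 to 132 CPM in HTG, with Sox9 higher (0.79, adjusted p = 0.0939). Without adjustment 1 of them was higher and 1 lower at p under 0.05. The lower one was Epcam (-0.95, edgeR adjusted p = 0.158), named after its value was seen. Of the 6 endothelial, 6 leukocyte and 5 red cell markers, 0 passed an adjusted p of 0.1, and 1 red cell marker was lower at p under 0.05 without adjustment. Of the 3 pancreas markers in the table, Pnlip and Ctrb1 were at 0 in every library and 1 was expressed highly enough to be tested.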

How the data were processed

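For each gene, the deposited table gives every library's estimated count as a whole number, not normalised between libraries, and its FPKM, which the authors scaled to transcript length and library size. The submitters' processing notes name HISAT2, StringTie and SAMtools and the rat build mRatBN7.2, while the rows are mouse Ensembl genes, so coordinates are printed as the table lists them and no build is claimed. The paper describes poly(A) libraries that mark the strand, and the labels name an NEBNext Ultra kit. Samples were grouped by their titles.

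Estimated counts were used as whole numbers in edgeR 4.0.16 under R 4.3.3 (filterByExpr, TMM, estimateDisp, glmQLFit, glmQLFTest, the group as the only term) over the whole table. CPM are counts over the scaled library totals. Ratios of FPKM were tested by an exact permutation test. DESeq2 1.42.0 and limma 3.58.1 on log2(FPKM + 0.1) or log2(FPKM + 1), with a mean FPKM of at least 1, were alternatives, as were other filters and scalings, a replicate block and each library left out. The newer quasi-likelihood method was added after the data were seen. Scripts were tested on simulated counts.

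The 10 genes and all lists were chosen with earlier results of these data known. Text names all 10, up to 3 genes per list and direction with the smallest p among those with an adjusted p under 0.1, and Nr1h4, Nr0b2, Hsd17b4, Scp2 and Cyp2c70 whatever their values. Akr1d1, Hsd3b7 and Cyp7b1 rows overlap other rows, and no sequence is shown because no matching reference was at hand.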

Additional observations from a re-analysis of the deposited data

How the results depend on the processing

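Under the 18 alternatives tried for each gene, 9 of the 10 genes kept the direction of their fold change in all, and Baat changed sign in 2, with log2 fold changes of 0.0031 under upper-quartile scaling and 0.039 without HTG library 3 (-0.165 to 0.039 when each library was left out). Amacr and Slc27a5 had an unadjusted p under 0.05 in all 18. Members lower at an adjusted p under 0.05 numbered 0 in edgeR and 2 under DESeq2 and under limma on log2(FPKM + 0.1) and log2(FPKM + 1), in each case Amacr and Slc27a5, and between 0 and 2 when each library was left out, the 2 being Cyp8b1 and Slc27a5 without HTG library 1. Members lower at an unadjusted p under 0.05 numbered 2 in edgeR and 2 or 3 under the alternatives that kept all libraries. They numbered between 2 and 4 when each library was left out, the 4 again without HTG library 1. Cyp8b1, at an unadjusted p of 0.0522 in edgeR, was under 0.05 in 10 of the 18 alternatives. The log2 fold change of Cyp8b1 lay between -3.97 and -1.52 when each library was left out, and at -2.84 under limma on log2(FPKM + 0.1). The difference in the log2 ratio of Cyp7a1 to Cyp7b1 lay between -0.67 and 0.25 when each library was left out, at 0.13 without HFD library 3 and 0.25 without HTG library 3.

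Over all genes, the numbers called at an adjusted p of 0.05 were 1 higher and 1 lower in edgeR, and likewise for DESeq2 1109 and 1358, the newer quasi-likelihood method 271 and 256, DESeq2's size factors and upper-quartile scaling 1 and 1 each, no filter 86 and 76, at least 10 counts in every library 369 and 315, counts divided by 4 459 and 363, mitochondrial mRNAs left out 10 and 4, limma on log2(FPKM + 0.1) 326 and 552 and on log2(FPKM + 1) 329 and 555, and limma with no filter 0 and 0. Leaving out each library gave 0 to 234 higher and 0 to 419 lower, both highest without HTG library 1. The cause was not tested. Same-numbered libraries of the groups deviated together with r of -0.15, -0.12 and 0.21, and only HFD library 3 correlated best with its own number. Deviations from the mean of only 3 libraries are tied to each other. These values therefore cannot decide whether the numbers pair the libraries. The replicate block called 0 and 0 of all genes and 0 members, with log2 fold changes of -3.05 for Cyp8b1 (adjusted p = 0.193), -0.94 for Slc27a5 (0.15) and -0.64 for Amacr (0.164). With 3 libraries per group the intervals of most members reach well to both sides of 0.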

Other observations

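Among genes outside bile acid synthesis, 2 of 10 male-biased liver genes were higher in HTG at an edgeR adjusted p under 0.1 and 0 were lower, where 5.41% of all genes were higher. In all, 5 had a negative fold change and the median was 0.03 on the log2 scale, and without adjustment 2 were higher and 1 lower at p under 0.05. Hsd3b5, a steroid dehydrogenase of the male mouse liver, stood at 6.05, 3.01 and 1.13 CPM in HFD and at 31.5, 70.5 and 21.4 CPM in HTG (log2 fold change 3.60, adjusted p = 0.0553), with no overlap of the groups. Cyp2u1 had a log2 fold change of 1.25 (adjusted p = 0.0631). Of 10 female-biased genes, 5 were expressed highly enough to be tested and 0 passed an adjusted p of 0.1.

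Bile acid synthesis follows the time of day, and of 15 clock genes and their outputs 14 were tested and 0 passed an edgeR adjusted p of 0.1, with 1 lower at an unadjusted p under 0.05 and 0 by DESeq2 at an adjusted p under 0.05. Dbp, an output of the clock that acts on the Cyp7a1 promoter, was uneven within both groups and is named after its values were seen, with 144, 29.4 and 28.3 CPM in HFD and 5.83, 274 and 116 CPM in HTG. The time of day at which the livers were taken is not given in the sources used here.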
